A study of Rattus norvegicus with 12 samples.

Results

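The genes described here are 48 rat genes of the extracellular matrix: collagen chains, other matrix proteins, the enzymes that modify and crosslink collagen, and matrix proteases with their inhibitors. They were chosen by symbol, and their probes were found on the arrays through RefSeq accessions, with the version ignored. Of the 48 genes, 40 had a probe, among 16581 genes named on the array. Of these 40, 38 were tested, and 37 were well above background on all 12 arrays. No probe was matched for *Col4a2*, *Col5a2*, *Col6a1*, *Col6a3*, *Col12a1*, *Lox*, *Nid1* or *Lamb1*.

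The extracellular matrix is the network of secreted proteins around cells. Fibril-forming collagens fold as triple helices in the endoplasmic reticulum, where prolyl and lysyl hydroxylases modify them, and are crosslinked outside the cell by lysyl oxidases. In skeletal muscle each fibre is wrapped in a basement membrane of laminin, type IV collagen and nidogen, with fibrillar collagen and proteoglycans between the fibres. Metalloproteinases cut these proteins, tissue inhibitors of metalloproteinases hold that activity in check, and matricellular proteins such as thrombospondins and periostin act mainly on cell behaviour.

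The RNA came from L6, a line of rat myoblasts that can be made to fuse into multinucleate myotubes. The myotubes were treated for 24 h at 60 µM with GR24, a synthetic analog of strigolactone plant hormones, with pinosylvin or with resveratrol. The control received DMSO, the solvent of GR24, at a matching concentration. Pinosylvin and resveratrol are stilbenes of the same carbon skeleton, and resveratrol carries an added hydroxyl group. The labels give 6 days of differentiation before treatment, and the methods of the study give 1 day more. Each group had 3 arrays from 3 independent experiments on 1 cell line, and the p-values rest on the spread between arrays within the groups. The main fit did not pair arrays by replicate number, so shifts shared by arrays of 1 experiment or slide are part of that spread. Fits with the replicate number or slide as a block are given as alternatives. Replicates 1 and 2 of every group were on slide 1 and replicate 3 on slide 2.

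Each array was an Agilent 1-colour array with 58717 spots, of which 58.0% to 64.3% were well above background. Levels are log2 of the background-subtracted signal relative to the 75th percentile of the array, so a level of 0 is a probe as bright as that percentile. Levels of different probes are not compared with each other. A difference is a log2 fold change, the mean level of the first group minus that of the second, with its standard error (SE). A gene was called higher or lower where the adjusted p of limma's moderated test was under 0.05, with Benjamini-Hochberg adjustment over all 24279 tested probes. The 3 comparisons with the control share its arrays, so their values are set side by side and are no separate support for each other.

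With GR24 the matrix genes fell: 30 of the 38 were lower than in the control and 2 were higher, and 6 were not called. Among all tested probes 25.5% were called lower and 31.5% higher. The median log2 fold change of the 38 genes was -0.65, against 0.027 for all tested probes, and was -0.62 on slide 1 and -0.75 on slide 2. Quantile normalization moved the median of all tested probes to 0.11 and that of the 38 genes to -0.60. The calls of *Sparc*, *Bgn*, *Plod2* and *Dcn*, 4 of the 30, were lost under at least 1 alternative processing. The other 26 were kept under all alternatives that tested the gene. *Eln*, among these 26, was not tested where only probes above background on all 12 arrays were used. The falls in *Col3a1* and *Fn1* were known from earlier results on these data and are no independent support.

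Pinosylvin changed fewer of them. It left 26 of the 38 uncalled, with 8 lower (8.27% of all tested probes) and 4 higher (8.28%), and the median was -0.05 against 0.054 for all tested probes. That median was -0.0199 on slide 1 and -0.027 on slide 2. Its sign turned without pinosylvin replicate 3, to 0.00548. The 4 higher genes were *Postn*, *Thbs1*, *Lum* and *Mmp2*. Their share of the 38 is close to that of all tested probes, so it is no result about the matrix genes as a group. With the replicate number as a block in the fit, 8 were higher, where 16.3% of all tested probes were, the added ones being *Plod1* (adjusted p = 0.0134), *Bgn* (0.0228), *Fmod* (0.0275) and *Col4a1* (0.0383). In the same fit 11 were lower, beside 12.3% of all tested probes, the added ones being *Loxl2* (adjusted p = 0.00275), *Col6a2* (0.032) and *Loxl1* (0.0405). Without a filter on dim probes, or with a fit of the 6 arrays alone, 2 of the 8 lower genes were called, *Col5a3* and *Col15a1*.

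Resveratrol lowered 12 of the 38 genes (8.99% of all tested probes were lower) and raised 0 (7.99% higher), and 26 were not called. At an unadjusted p under 0.05 from limma 1 gene was higher with resveratrol, *Spp1*, 0.20 (SE 0.0755, adjusted p = 0.11). The median of the 38 genes was -0.20, against 0.010 for all tested probes, and -0.23 on each slide. With the replicate block 18 were lower, and 13.8% of all tested probes, the added ones being *Eln* (adjusted p = 0.0035), *P4ha2* (0.00841), *Col8a1* (0.00927), *Loxl1* (0.0108), *Nid2* (0.0272) and *Col1a2* (0.0304). *Col1a1*, *Col5a1*, *Col5a3*, *Col15a1*, *Thbs2* and *Vcan*, 6 genes in all, were called lower with all 3 compounds. The share of all tested probes called lower with all 3 was not computed, so this count is no result about the matrix genes. The pinosylvin calls of *Col1a1*, *Col5a1*, *Thbs2* and *Vcan* and the resveratrol call of *Col5a1* were lost under some alternatives. *Col4a1*, *Loxl2*, *P4ha1* and *Timp2* were called with none of the 3 compounds. With the replicate block, however, *Loxl2* was lower with GR24 (adjusted p = 0.00258) and with pinosylvin (adjusted p = 0.00275), and *Col4a1* was higher with pinosylvin.

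**Figure D1:**
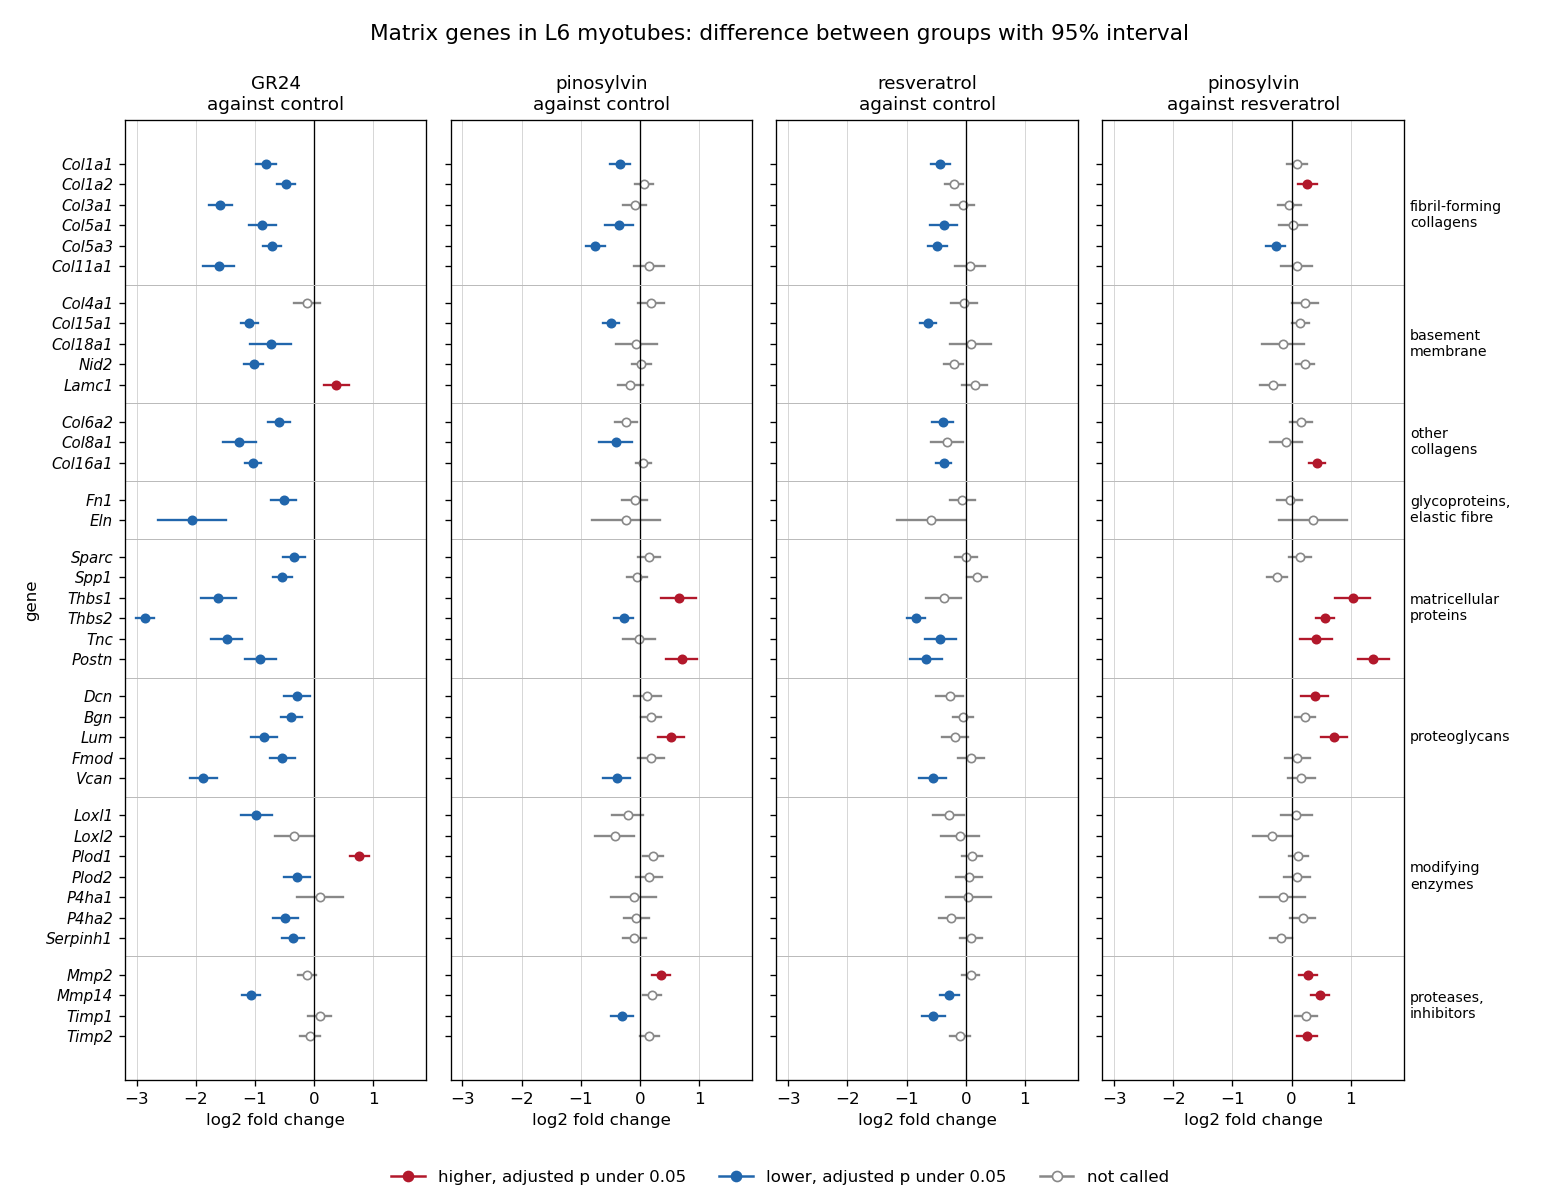
Log2 fold change (horizontal axis) of each of the 38 tested matrix genes, ordered by role, with 95% intervals from limma. The panels show GR24, pinosylvin and resveratrol against the control, and pinosylvin against resveratrol. Against the control, the points of 30 genes are called lower with GR24 and those of *Plod1* and *Lamc1* higher, while *Postn*, *Thbs1* and *Lum* are higher with pinosylvin.

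The fibril-forming collagens, which make the tensile fibrils of connective tissue, all fell with GR24. All 6 tested genes were lower, beside 25.5% of all tested probes, with a median of -0.84 and a range of -1.61 to -0.47. With pinosylvin and with resveratrol the same 3 genes of the 6 were lower, *Col1a1*, *Col5a1* and *Col5a3*, and the medians were -0.21 and -0.29. Among all tested probes 8.27% were lower with pinosylvin and 8.99% with resveratrol.

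*Col11a1* encodes a chain of type XI collagen, a minor component of fibrils, and measured 3.78, 3.72 and 3.94 on the control arrays, 2.13, 2.16 and 2.30 with GR24, 3.8, 3.89 and 4.22 with pinosylvin and 3.82, 3.81 and 4.03 with resveratrol. The GR24 arrays were far below the other 9, which overlapped. Its log2 fold change with GR24 was -1.61 (SE 0.116, adjusted p = 9.26e-07), while the values with pinosylvin (0.16) and resveratrol (0.07) were not called. *Col3a1*, the chain of type III collagen found beside type I in soft tissues, measured 7.03, 7.08 and 6.99 on the control arrays, 5.46, 5.57 and 5.31 with GR24, 7.00, 6.93 and 6.90 with pinosylvin and 6.91, 7.14 and 6.90 with resveratrol. Again only the GR24 arrays stood apart, below all others. The change with GR24 was -1.59 (SE 0.0882, adjusted p = 1.29e-07).

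*Col1a1* encodes a chain of type I collagen, the main collagen of tendon and bone. Its levels were 6.85, 6.85 and 6.74 on the control arrays, 6.06, 6.00 and 5.94 with GR24, 6.37, 6.49 and 6.57 with pinosylvin and 6.38, 6.30 and 6.47 with resveratrol. The control arrays were highest and the GR24 arrays lowest, and pinosylvin and resveratrol lay between them and overlapped each other. The changes were -0.81 (SE 0.0745, adjusted p = 5.62e-06) with GR24, -0.34 (SE 0.0745, adjusted p = 0.0114) with pinosylvin and -0.43 (SE 0.0745, adjusted p = 0.00304) with resveratrol. The pinosylvin call was lost with no filter (adjusted p = 0.0537) and in a fit of the 6 arrays (adjusted p = 0.0604). A second *Col1a1* probe was called lower with GR24 too, at -1.45. The partner chain *Col1a2* fell with GR24, -0.47 (SE 0.0708, adjusted p = 0.000207), or -0.30 with normexp and quantile normalization, and its value with resveratrol was -0.20 (SE 0.0708, adjusted p = 0.0832), not called here but called lower with the replicate block (adjusted p = 0.0304) and with trend and robust settings (adjusted p = 0.0465).

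*Col5a3* and *Col5a1* encode chains of type V collagen, which sits inside type I fibrils and limits their width. *Col5a3* measured 1.27, 1.31 and 1.42 on the control arrays, 0.59, 0.65 and 0.62 with GR24, 0.61, 0.64 and 0.50 with pinosylvin and 0.75, 0.91 and 0.91 with resveratrol. Every treated array was below every control array, pinosylvin and GR24 overlapped, and resveratrol lay above both. The fall was -0.75 (SE 0.0717, adjusted p = 5.69e-05) with pinosylvin, where it was the largest fall among the 38 genes, -0.71 (SE 0.0717, adjusted p = 1.15e-05) with GR24 and -0.48 (SE 0.0717, adjusted p = 0.00123) with resveratrol.

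*Col5a1* had levels of 4.79, 4.67 and 4.42 on the control arrays, 3.87, 3.70 and 3.68 with GR24, 4.29, 4.36 and 4.16 with pinosylvin and 4.36, 4.20 and 4.19 with resveratrol. The control arrays were highest, the GR24 arrays lowest, and the other 6 lay between and overlapped each other. Its changes were -0.88 (SE 0.104, adjusted p = 3.82e-05) with GR24, -0.35 (SE 0.104, adjusted p = 0.043) with pinosylvin and -0.38 (SE 0.104, adjusted p = 0.0327) with resveratrol. The pinosylvin call was lost without control replicate 1 or 2, GR24 replicate 2 or 3, pinosylvin replicate 1, 2 or 3, or resveratrol replicate 2 or 3 (adjusted p 0.0506 to 0.146), or with no filter, a fit of the 6 arrays compared or the second probe (adjusted p 0.111 to 0.132). The second probe of the gene gave -1.36 with GR24. The resveratrol call was lost without control replicate 1 or 2 or resveratrol replicate 2 or 3 (adjusted p 0.0962 to 0.118), or with no filter or a fit of the 6 arrays compared (adjusted p 0.0944 to 0.0993).

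Basement membrane proteins moved both ways with GR24. Of 5 tested genes, *Col15a1*, *Col18a1* and *Nid2* fell, *Lamc1* rose and *Col4a1*, a chain of the type IV network, was not called (-0.12 (SE 0.098, adjusted p = 0.347)). Among all tested probes 25.5% were lower with GR24 and 31.5% higher. *Nid2*, a nidogen that links laminin to type IV collagen, changed by -1.02 (SE 0.0717, adjusted p = 7.98e-07). *Col18a1*, whose C-terminal fragment is endostatin, changed by -0.74 (SE 0.159, adjusted p = 0.00238).

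*Col15a1*, a collagen of the outer face of basement membranes, measured 4.14, 4.00 and 4.05 on the control arrays, 3.02, 2.99 and 2.90 with GR24, 3.63, 3.55 and 3.52 with pinosylvin and 3.45, 3.40 and 3.42 with resveratrol. The 4 groups did not overlap, with the control highest, then pinosylvin, then resveratrol, and GR24 lowest. Log2 fold changes were -1.09 (SE 0.0633, adjusted p = 1.77e-07) with GR24, -0.49 (SE 0.0633, adjusted p = 0.000461) with pinosylvin and -0.64 (SE 0.0633, adjusted p = 0.000104) with resveratrol, and all 3 calls were kept under every alternative tried. *Lamc1*, the gamma chain shared by most laminins, measured 3.66, 3.27 and 3.39 on the control arrays, 3.85, 3.89 and 3.71 with GR24, 3.30, 3.27 and 3.26 with pinosylvin and 3.54, 3.65 and 3.58 with resveratrol. The GR24 arrays were above all control arrays, which overlapped both other groups. It rose by 0.38 (SE 0.0955, adjusted p = 0.00618) with GR24.

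The other collagens with a tested probe were *Col8a1*, *Col16a1* and *Col6a2*. All 3 fell with GR24, beside 25.5% of all tested probes, with a median of -1.04. *Col8a1*, a short-chain collagen that forms networks in vessel walls, measured 4.34, 4.32 and 4.05 on the control arrays, 3.05, 2.96 and 2.90 with GR24, 3.87, 4.00 and 3.60 with pinosylvin and 3.95, 4.06 and 3.74 with resveratrol. The GR24 arrays were lowest, the pinosylvin arrays were below all control arrays, and resveratrol overlapped both of these groups. The changes were -1.27 (SE 0.125, adjusted p = 9.69e-06) with GR24, -0.41 (SE 0.125, adjusted p = 0.0475) with pinosylvin and -0.32 (SE 0.125, adjusted p = 0.116) with resveratrol. The resveratrol value was not called here but was called lower with the replicate block (adjusted p = 0.00927) and on slide 1 alone (adjusted p = 0.0394). The pinosylvin call was lost without control replicate 1 or 2, GR24 replicate 1, 2 or 3, pinosylvin replicate 1 or 3, or resveratrol replicate 1 or 2 (adjusted p 0.052 to 0.145), or with no filter or a fit of the 6 arrays compared (adjusted p 0.123 to 0.135).

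*Col16a1*, a collagen that associates with fibrils, fell with GR24, -1.04 (SE 0.0587, adjusted p = 1.53e-07), and with resveratrol, -0.37 (SE 0.0587, adjusted p = 0.00169), and its value with pinosylvin was 0.06. *Col6a2*, a chain of the microfibrillar type VI collagen that anchors muscle basement membranes, fell with GR24, -0.59 (SE 0.0817, adjusted p = 0.000118), and with resveratrol, -0.39 (SE 0.0817, adjusted p = 0.00816). Its second probe was lower with GR24 as well, at -0.56, but was not called with resveratrol, at -0.078 (adjusted p = 0.478).

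Elastin and fibronectin also fell with GR24. Elastin, *Eln*, gives tissues their recoil, and measured -2.74, -2.80 and -2.29 on the control arrays, -4.79, -5.07 and -4.19 with GR24, -2.85, -3.06 and -2.62 with pinosylvin and -3.47, -3.40 and -2.75 with resveratrol. It was dim, well above background on 11 of the 12 arrays, all but GR24 replicate 2. The size of its fall with GR24 therefore rests partly on a signal at background. The GR24 arrays were below all others. The change was -2.07 (SE 0.259, adjusted p = 5.58e-05) with GR24 and -0.59 (SE 0.259, adjusted p = 0.156) with resveratrol, the latter not called here but called lower with the replicate block (adjusted p = 0.0035) and on slide 1 alone (adjusted p = 0.0156). The fall with GR24 was called under all alternatives in which *Eln* was tested. It was smaller with normexp (-1.01), with normexp and quantile normalization (-0.95) and in the series table (-1.37). Fibronectin, *Fn1*, an adhesive glycoprotein that collagen assembles on, changed by -0.51 (SE 0.0938, adjusted p = 0.00079) with GR24, by -0.09 with pinosylvin and by -0.06 with resveratrol, the last 2 not called. Fibrillin, *Fbn1*, was not tested, since it was well above background on 2 control arrays and 1 pinosylvin array and on no array of the other groups.

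Of the matricellular proteins all 6 tested genes fell with GR24, with a median of -1.19, while pinosylvin raised *Postn* and *Thbs1* and lowered *Thbs2*, and resveratrol lowered *Postn*, *Thbs2* and *Tnc* and raised none. Of all tested probes 25.5% were lower with GR24, 8.28% higher and 8.27% lower with pinosylvin, and 8.99% lower with resveratrol. Thrombospondin 2, *Thbs2*, an inhibitor of angiogenesis, measured 5.36, 5.16 and 5.30 on the control arrays, 2.45, 2.43 and 2.36 with GR24, 5.04, 4.95 and 5.0 with pinosylvin and 4.36, 4.48 and 4.47 with resveratrol. The 4 groups did not overlap, in the order control, pinosylvin, resveratrol, GR24 from high to low. The fall with GR24, -2.86 (SE 0.0693, adjusted p = 4.49e-10), was the largest of the 38 genes. Its change was -0.84 (SE 0.0693, adjusted p = 3.59e-05) with resveratrol and -0.28 (SE 0.0693, adjusted p = 0.0208) with pinosylvin, and the pinosylvin call was lost without control replicate 1 or 3 or pinosylvin replicate 2 (adjusted p 0.0611 to 0.0815), or with no filter, slide 1 alone or a fit of the 6 arrays compared (adjusted p 0.0923 to 0.105).

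Thrombospondin 1, *Thbs1*, which can activate latent TGF-beta, measured -1.01, -0.89 and -1.20 on the control arrays, -2.61, -2.83 and -2.51 with GR24, -0.44, -0.11 and -0.58 with pinosylvin and -1.29, -1.43 and -1.50 with resveratrol. The 4 groups did not overlap, with pinosylvin above the control, resveratrol below it and GR24 lowest. It rose by 0.66 (SE 0.133, adjusted p = 0.00724) with pinosylvin and changed by -1.62 (SE 0.133, adjusted p = 2.45e-06) with GR24. The value with resveratrol, -0.37 (SE 0.133, adjusted p = 0.0833), was not called here but was called lower with normexp (adjusted p = 0.0349). Periostin, *Postn*, which binds collagen and promotes its crosslinking, measured -3.10, -3.04 and -3.07 on the control arrays, -4.08, -3.95 and -3.90 with GR24, -2.13, -2.37 and -2.58 with pinosylvin and -3.93, -3.61 and -3.68 with resveratrol. Pinosylvin was above the control on all 3 arrays, and GR24 and resveratrol were below it and overlapped each other. Its changes were 0.71 (SE 0.119, adjusted p = 0.00259) with pinosylvin, -0.91 (SE 0.119, adjusted p = 7.91e-05) with GR24 and -0.67 (SE 0.119, adjusted p = 0.00339) with resveratrol, and the resveratrol call was lost with normexp and quantile normalization (-0.29, adjusted p = 0.0534). In that alternative the *Postn* values were 0.40 with pinosylvin and -0.44 with GR24, both still called.

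The other matricellular genes were tenascin C, osteonectin and osteopontin. Tenascin C, *Tnc*, a large glycoprotein of remodelling tissue, fell with GR24, -1.48 (SE 0.12, adjusted p = 2.3e-06), and with resveratrol, -0.43 (SE 0.12, adjusted p = 0.0346). The resveratrol call was lost without control replicate 1 or 3 or resveratrol replicate 1, 2 or 3 (adjusted p 0.0579 to 0.112), or with no filter, slide 1 alone, a fit of the 6 arrays compared or the second probe (adjusted p 0.0693 to 0.135). Osteopontin, *Spp1*, changed by -0.53 (SE 0.0755, adjusted p = 0.000135) with GR24. Osteonectin, *Sparc*, a collagen-binding protein, changed by -0.34 (SE 0.0828, adjusted p = 0.00485) with GR24, a call that was lost with quantile normalization (-0.024, adjusted p = 0.769), with normexp added (-0.09) and in the series table (-0.045).

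Proteoglycans, core proteins with sugar chains that space and bind collagen fibrils, all fell with GR24: 5 of 5 tested genes, with a median of -0.54. Among all tested probes 25.5% were lower. Versican, *Vcan*, a large proteoglycan that binds hyaluronan, measured 3.03, 2.77 and 2.72 on the control arrays, 1.07, 0.95 and 0.89 with GR24, 2.33, 2.44 and 2.59 with pinosylvin and 2.33, 2.19 and 2.34 with resveratrol. GR24 was lowest, and pinosylvin and resveratrol were below the control, with an overlap between them. Its changes were -1.87 (SE 0.102, adjusted p = 1.08e-07) with GR24, -0.56 (SE 0.102, adjusted p = 0.00395) with resveratrol and -0.39 (SE 0.102, adjusted p = 0.0252) with pinosylvin, and the pinosylvin call was lost without control replicate 1 or pinosylvin replicate 1 or 2 (adjusted p 0.0751 to 0.0948), or with no filter or a fit of the 6 arrays compared (adjusted p 0.0852 to 0.0969).

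Lumican, *Lum*, a small proteoglycan that regulates fibril width, measured -1.66, -1.92 and -1.78 on the control arrays, -2.50, -2.67 and -2.75 with GR24, -1.16, -1.34 and -1.26 with pinosylvin and -1.98, -1.83 and -2.09 with resveratrol. Pinosylvin was above all other arrays and GR24 below all others, and resveratrol overlapped the control. It rose by 0.53 (SE 0.0989, adjusted p = 0.00447) with pinosylvin and changed by -0.85 (SE 0.0989, adjusted p = 3.34e-05) with GR24. Fibromodulin, *Fmod*, fell with GR24, -0.54 (SE 0.0959, adjusted p = 0.000706), as did biglycan, *Bgn*, -0.38 (SE 0.0766, adjusted p = 0.00146), whose call was lost in the same 3 alternatives as that of *Sparc*, quantile normalization (-0.11), normexp with it (-0.11) and the series table (-0.12). Decorin, *Dcn*, changed by -0.29 (SE 0.102, adjusted p = 0.0332) with GR24, a call lost without control replicate 1 or 3 or GR24 replicate 1 or 3 (adjusted p 0.0524 to 0.129), or with the percentile over spots, the series table, no filter, slide 1 alone or a fit of the 6 arrays compared (adjusted p 0.0513 to 0.194). With the percentile over spots *Dcn* was -0.19.

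Among the enzymes that modify and crosslink collagen GR24 changed 5. Of 7 tested genes 4 fell, *Loxl1*, *P4ha2*, *Serpinh1* and *Plod2*, 1 rose and 2 were not called, with a median of -0.33. Among all tested probes 25.5% were lower and 31.5% higher. *Plod1*, a lysyl hydroxylase that prepares collagen for crosslinking, measured 3.20, 3.11 and 3.10 on the control arrays, 3.92, 3.98 and 3.8 with GR24, 3.43, 3.37 and 3.27 with pinosylvin and 3.25, 3.31 and 3.16 with resveratrol. The GR24 arrays were above all others, and pinosylvin was above all control arrays. It rose by 0.76 (SE 0.0738, adjusted p = 8.45e-06) with GR24, and the value with pinosylvin, 0.22 (SE 0.0738, adjusted p = 0.0686), was not called here but was called higher under several alternatives, among them the replicate block (adjusted p = 0.0134) and quantile normalization (adjusted p = 0.0168). *Loxl1*, a lysyl oxidase needed for elastic fibres, changed by -0.98 (SE 0.115, adjusted p = 3.7e-05) with GR24.

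*P4ha2*, a catalytic subunit of prolyl hydroxylase, changed by -0.48 (SE 0.0952, adjusted p = 0.00129) with GR24, and its relative *P4ha1* was not called (0.10 (SE 0.173, adjusted p = 0.674)). *Serpinh1*, a chaperone specific for collagen, changed by -0.36 (SE 0.085, adjusted p = 0.00435). *Plod2*, the lysyl hydroxylase of collagen telopeptides, changed by -0.29 (SE 0.0972, adjusted p = 0.0246), a call lost without control replicate 1 or 2 or GR24 replicate 3 (adjusted p 0.053 to 0.0812), or with the percentile over spots, the series table, no filter, normexp and quantile normalization together, a fit of the 6 arrays compared or quantile normalization (adjusted p 0.0519 to 0.0865). It was -0.19 without GR24 replicate 3 and -0.19 with the percentile over spots. *Loxl2* was -0.33 (SE 0.147, adjusted p = 0.0781), not called here but called lower with the replicate block (adjusted p = 0.00258), on slide 1 alone (adjusted p = 0.0212) and without pinosylvin replicate 3 (adjusted p = 0.0479). No enzyme was called with pinosylvin or resveratrol. With the replicate block *Loxl1* (adjusted p = 0.0405) and *Loxl2* (adjusted p = 0.00275) were lower with pinosylvin, and *Loxl1* (adjusted p = 0.0108) and *P4ha2* (adjusted p = 0.00841) were lower with resveratrol.

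Of the 4 tested proteases and inhibitors, *Mmp14* fell with GR24 and 3 were not called. That share is near the 25.5% of all tested probes that were lower, so it is no result about the group. *Mmp14*, a membrane-bound metalloproteinase, cuts fibrillar collagen and activates the product of *Mmp2*. It changed by -1.07 (SE 0.0699, adjusted p = 4.6e-07) with GR24 and -0.28 (SE 0.0699, adjusted p = 0.0214) with resveratrol. The resveratrol call was lost without control replicate 1 or 2 or resveratrol replicate 2 or 3 (adjusted p 0.0508 to 0.0796), or with no filter, slide 1 alone, a fit of the 6 arrays compared or quantile normalization (adjusted p 0.0539 to 0.0886). *Mmp2*, a gelatinase that cuts type IV collagen, measured 6.11, 6.07 and 6.19 on the control arrays, 6.02, 6.07 and 5.90 with GR24, 6.49, 6.42 and 6.53 with pinosylvin and 6.13, 6.24 and 6.25 with resveratrol. The pinosylvin arrays were above all others, and the rise with pinosylvin was 0.36 (SE 0.0682, adjusted p = 0.00539). The second *Mmp2* probe was higher with pinosylvin as well, at 0.49.

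*Timp1*, a secreted inhibitor of metalloproteinases, measured 5.82, 5.92 and 5.76 on the control arrays, 5.94, 6.03 and 5.80 with GR24, 5.56, 5.57 and 5.45 with pinosylvin and 5.23, 5.42 and 5.20 with resveratrol. Resveratrol was lowest, pinosylvin next, and GR24 overlapped the control above them. Its changes were -0.55 (SE 0.0855, adjusted p = 0.00158) with resveratrol, -0.30 (SE 0.0855, adjusted p = 0.035) with pinosylvin and 0.09 (SE 0.0855, adjusted p = 0.384) with GR24, the last not called here but called higher after quantile normalization, at 0.18 (adjusted p = 0.0423), and in the deposited series table, at 0.20 (adjusted p = 0.0311). The pinosylvin call was lost without control replicate 1 or 2, GR24 replicate 1, or pinosylvin replicate 1, 2 or 3 (adjusted p 0.0542 to 0.101), or with no filter, slide 1 alone or a fit of the 6 arrays compared (adjusted p 0.0664 to 0.122). *Timp2* was also not called with GR24, at -0.06 (adjusted p = 0.517), and was called higher after quantile normalization, at 0.13 (adjusted p = 0.0379). *Timp3* was on no array well above background and was not tested.

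**Figure D2:**
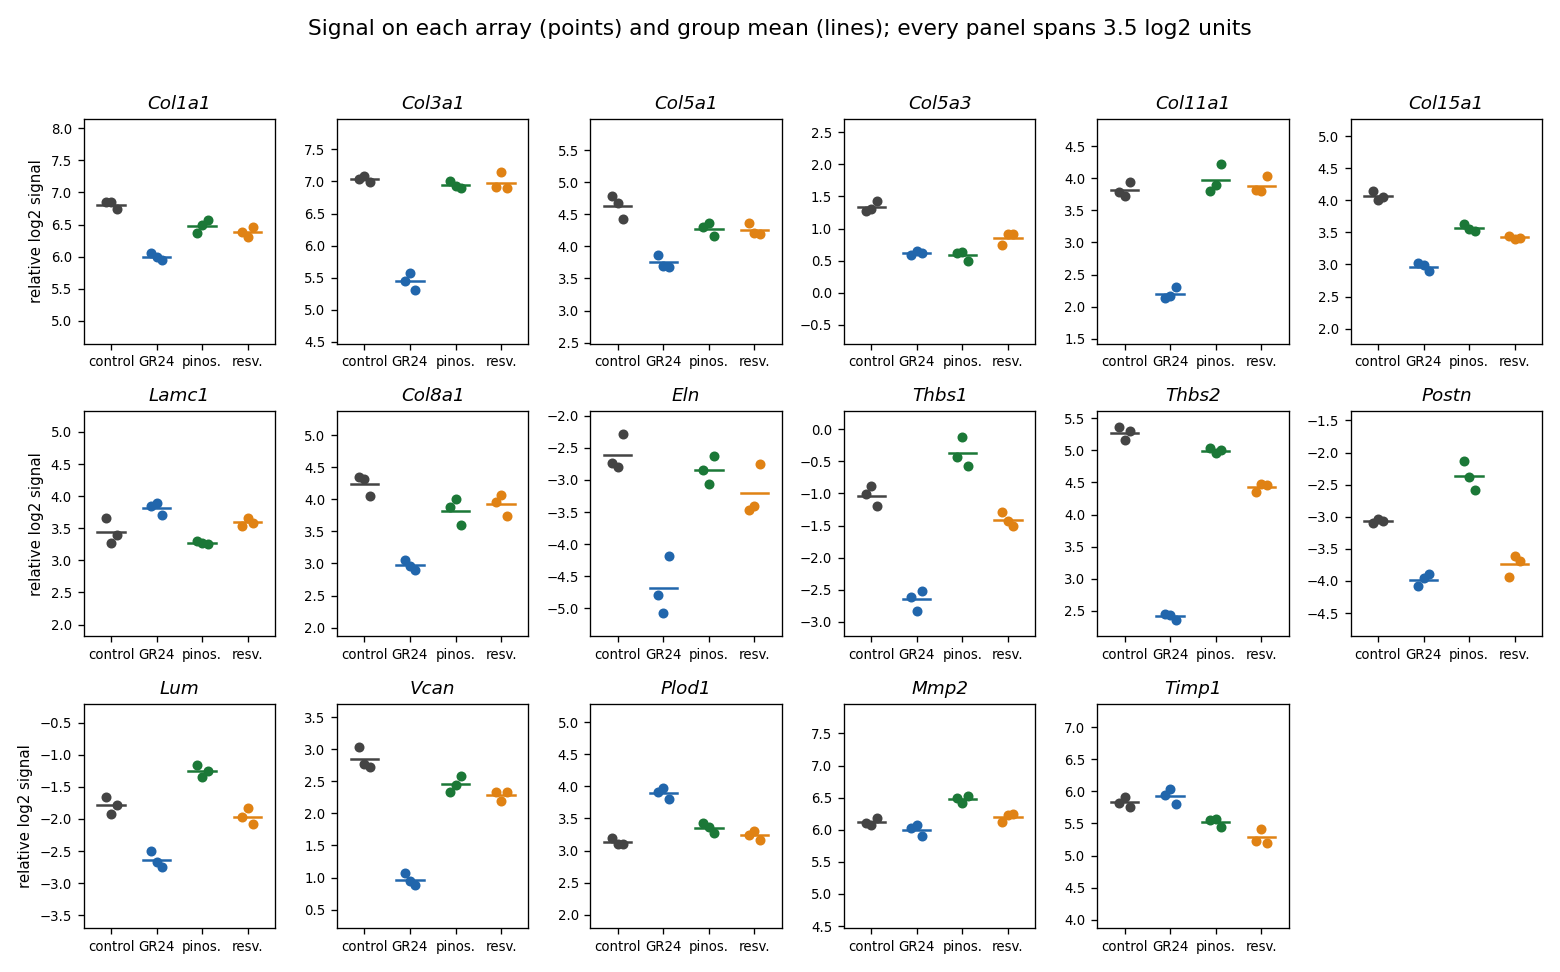
Level on each of the 12 arrays (vertical axis, log2 signal relative to the 75th percentile of the array) of matrix genes by treatment group, with a bar at each group mean. Short names are pinos. for pinosylvin and resv. for resveratrol. For *Thbs2* the 3 GR24 arrays lie close together, between 2.36 and 2.45.

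Pinosylvin and resveratrol, at the same dose and time, were compared directly, as 1 of 3 comparisons between compounds. More matrix genes were higher than lower with pinosylvin: 11 of 38 were called higher (7.68% of all tested probes) and 1 lower (6.85%), with a median of 0.15 against 0.022 for all tested probes, and 0.16 and 0.13 on slides 1 and 2. The largest differences were in *Postn*, 1.38 (SE 0.119, adjusted p = 5.98e-05), *Thbs1*, 1.03 (SE 0.133, adjusted p = 0.000667), *Lum*, 0.71 (SE 0.0989, adjusted p = 0.00104), and *Thbs2*, 0.56 (SE 0.0693, adjusted p = 0.000498). *Mmp14* differed by 0.48 (SE 0.0699, adjusted p = 0.00145) and *Col16a1* by 0.43 (SE 0.0587, adjusted p = 0.000936), and these 6 calls were kept under every alternative tried. The *Postn* difference was 0.80 with normexp and 0.69 with normexp and quantile normalization.

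The calls of the remaining 6 genes were less stable. *Tnc*, 0.42 (SE 0.12, adjusted p = 0.0439), lost its call without control replicate 3, GR24 replicate 1 or 2, pinosylvin replicate 1, 2 or 3, or resveratrol replicate 1, 2 or 3 (adjusted p 0.0547 to 0.134), or with the mean over probes, no filter, normexp, slide 1 alone or the second probe (adjusted p 0.0503 to 0.168). *Dcn*, 0.39 (SE 0.102, adjusted p = 0.0285), lost it without pinosylvin replicate 1 or 2 or resveratrol replicate 1, 2 or 3 (adjusted p 0.0539 to 0.0981), or with no filter or slide 1 alone (adjusted p 0.0837 to 0.0938). For *Mmp2*, 0.28 (SE 0.0682, adjusted p = 0.023), the call was lost without pinosylvin replicate 1 or 3 or resveratrol replicate 1 or 2 (adjusted p 0.0527 to 0.0796), or with the series table, no filter, normexp and quantile normalization together, slide 1 alone, a fit of the 6 arrays compared or quantile normalization (adjusted p 0.0523 to 0.142), and the difference was 0.18 in the series table and 0.53 for the second probe. These 3 genes, with *Col1a2* and *Timp2*, were higher with pinosylvin than with resveratrol. *Col1a2*, 0.27 (SE 0.0708, adjusted p = 0.0306), was not called without GR24 replicate 1, pinosylvin replicate 2 or 3, or resveratrol replicate 1, 2 or 3 (adjusted p 0.0502 to 0.113), or with the series table, no filter, normexp and quantile normalization together, slide 1 alone, a fit of the 6 arrays compared or quantile normalization (adjusted p 0.075 to 0.611). With quantile normalization *Col1a2* differed by 0.082, and by 0.064 with normexp added and in the series table. *Timp2*, 0.26 (SE 0.0758, adjusted p = 0.0483), was not called without control replicate 1, GR24 replicate 1, 2 or 3, pinosylvin replicate 1, 2 or 3, or resveratrol replicate 1, 2 or 3 (adjusted p 0.0586 to 0.161), or with the series table, no filter, normexp, normexp and quantile normalization together, slide 1 alone, a fit of the 6 arrays compared, outlier spots kept or quantile normalization (adjusted p 0.0518 to 0.278). *Timp2* differed by 0.086 with quantile normalization, 0.095 with normexp added and 0.097 in the series table. *Col5a3*, the 1 gene lower with pinosylvin than with resveratrol, -0.27 (SE 0.0717, adjusted p = 0.0304), was not called without pinosylvin replicate 1, 2 or 3 or resveratrol replicate 2 or 3 (adjusted p 0.0573 to 0.107), or with no filter, slide 1 alone or a fit of the 6 arrays compared (adjusted p 0.0932 to 0.134).

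With the replicate block 18 genes were higher with pinosylvin than with resveratrol and 5 lower, where 14.4% and 11.6% of all tested probes were. The 5 are near the share of all tested probes and are no result about the matrix genes. The added higher genes were *Bgn*, *Nid2*, *Timp1*, *P4ha2*, *Col15a1*, *Eln* and *Col4a1*, with adjusted p from 0.00863 for *Timp1* to 0.0474 for *Col15a1*, and the added lower genes were *Loxl2*, *Serpinh1*, *Lamc1* and *Spp1*, from 0.0105 for *Loxl2* to 0.0407 for *Spp1*. Of the 7 genes that fell with both compounds, *Col1a1*, *Col5a1*, *Vcan*, *Col15a1* and *Timp1* were not called between them here. The difference was 0.09 for *Col1a1* (95% interval -0.07 to 0.26) and 0.02 for *Col5a1* (-0.21 to 0.25). It was 0.17 for *Vcan* (-0.06 to 0.39), 0.15 for *Col15a1* (adjusted p = 0.162) and 0.24 for *Timp1* (adjusted p = 0.0874). *Col3a1*, which was called with neither compound, differed by -0.04 (-0.24 to 0.16). A p that misses the threshold does not show that the compounds act alike on these genes.

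Most matrix genes were lower with GR24 than with either stilbene. Against pinosylvin 32 of the 38 were lower and 3 higher, where 26.8% and 29.6% of all tested probes were, and the median was -0.53 against -0.0031, with the sign of *Timp2* turned to 0.02 by quantile normalization. Against resveratrol 27 were lower and 2 higher, where 23.9% and 27.4% of all tested probes were, and the median was -0.45 against 0.024. With the replicate block 30 were lower than with resveratrol, beside 28.5% of all tested probes, the added ones being *P4ha2* (adjusted p = 0.00348), *Loxl2* (0.0168) and *Col6a2* (0.0304). The second *Col6a2* probe was called lower than with resveratrol without a block, at -0.48 (adjusted p = 9.72e-05). The calls of *Bgn*, *Col1a2*, *Col5a3*, *Mmp2* and *Sparc* against resveratrol were lost under some alternatives, and the second *Mmp2* probe was not called, at -0.092 (adjusted p = 0.244). *Plod1* and *Timp1* were higher with GR24 in both comparisons. *Plod1* differed by 0.54 (SE 0.0738, adjusted p = 0.000111) from pinosylvin and 0.66 (SE 0.0738, adjusted p = 3.43e-05) from resveratrol. *Timp1* differed by 0.40 (SE 0.0855, adjusted p = 0.00234) and 0.64 (SE 0.0855, adjusted p = 0.00011). *Lamc1* was higher than with pinosylvin, 0.54 (SE 0.0955, adjusted p = 7e-04), and its difference from resveratrol, 0.22 (SE 0.0955, adjusted p = 0.0756), was not called here but was called higher after quantile normalization, at 0.32 (adjusted p = 0.0149). *Thbs2* was lower with GR24 than with resveratrol, -2.02 (SE 0.0693, adjusted p = 1.02e-08). *Postn* did not pass the test between GR24 and resveratrol, at -0.24 (95% interval -0.50 to 0.03), but was called lower with GR24 without resveratrol replicate 1 (adjusted p = 0.0463).

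Other genes of the matrix, outside the 48, were described by list, beside the 31.5% of all tested probes called higher and 25.5% called lower with GR24. The other collagen chains had 11 of 27 genes with a probe and 6 tested, of which GR24 raised 1 and lowered 3, with a median of -0.61. *Col7a1*, which anchors the epidermis, was well above background on 0 control and 3 GR24 arrays and was at least 4.25-fold higher with GR24. *Col13a1*, a transmembrane collagen of the neuromuscular junction, was above background on 3 control and 0 GR24 arrays and at least 1.3-fold lower. *Col7a1* passed the filter on dim probes only through GR24 and *Col13a1* only through the control, the group in which each is high, so their calls, 2 of the 4 in this list, are descriptions and not tests. *Col23a1*, another transmembrane collagen, fell with GR24, -1.56 (SE 0.155, adjusted p = 1.04e-05).

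Further basement membrane proteins had 10 of 14 genes with a probe and 6 tested, with 4 lower and 0 higher with GR24 and a median of -0.42. The laminin chain *Lamb3* changed by -1.13 (SE 0.111, adjusted p = 9.08e-06) with GR24, -0.91 (SE 0.111, adjusted p = 0.000318) with pinosylvin and -0.64 (SE 0.111, adjusted p = 0.00305) with resveratrol. Agrin, *Agrn*, which clusters acetylcholine receptors at the neuromuscular junction, changed by -0.47 (SE 0.0924, adjusted p = 0.00125) with GR24, and *Lamb2*, a laminin chain of that junction, by -0.44 (SE 0.117, adjusted p = 0.00818). Elastic fibre and microfibril genes had 14 of 18 with a probe and 11 tested, with 7 lower and 3 higher with GR24 and a median of -0.43. The microfibril protein *Mfap5* fell with all 3 compounds, -2.06 (SE 0.0887, adjusted p = 2.07e-08) with GR24, -0.83 (SE 0.0887, adjusted p = 0.000123) with pinosylvin and -0.89 (SE 0.0887, adjusted p = 0.000105) with resveratrol. *Ltbp2* changed by -1.09 (SE 0.083, adjusted p = 1.39e-06) with GR24, and *Ltbp4*, which binds latent TGF-beta, by -1.05 (SE 0.122, adjusted p = 3.33e-05).

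Other matricellular proteins and proteoglycans had 28 of 31 genes with a probe and 17 tested. GR24 lowered 14 of the 17 and raised 0, with a median of -1.11, pinosylvin raised 4 and lowered 2, and resveratrol raised 3 and lowered 6. *Ccn5* had the same directions as *Postn*, with -2.30 (SE 0.0671, adjusted p = 1.72e-09) for GR24, 0.41 (SE 0.0671, adjusted p = 0.0021) for pinosylvin and -0.49 (SE 0.0671, adjusted p = 0.000716) for resveratrol. *Ccn2*, connective tissue growth factor, changed by -1.83 (SE 0.0713, adjusted p = 1.05e-08) with GR24, and the small proteoglycan *Omd* by -1.81 (SE 0.0791, adjusted p = 2.3e-08).

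Further collagen processing enzymes had 19 of 25 genes with a probe, all 19 tested, with 9 lower and 3 higher with GR24 and a median of -0.21. The lysyl oxidase *Loxl4* fell, -2.45 (SE 0.136, adjusted p = 1.29e-07), and was above background on 2 of the 3 GR24 arrays. The prolyl 3-hydroxylases parted, with *P3h2* higher, 1.04 (SE 0.14, adjusted p = 9.41e-05), and *P3h3* lower, -0.89 (SE 0.151, adjusted p = 0.000504).

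Matrix proteases and inhibitors outside the 48 had 25 of 27 genes with a probe and 16 tested, with 12 lower and 3 higher with GR24 and a median of -0.66. Proteases that cut proteoglycans had the largest falls of this list, *Adamts5*, -3.88 (SE 0.106, adjusted p = 1.04e-09), *Adamts9*, -3.23 (SE 0.0767, adjusted p = 4.03e-10), and *Adamts4*, -3.05 (SE 0.0721, adjusted p = 3.81e-10). Of matrix receptors 18 of 24 genes had a probe and 16 were tested, with 12 lower and 3 higher with GR24 and a median of -0.48. Integrin chains that bind laminin, *Itga6*, -2.15 (SE 0.0877, adjusted p = 1.41e-08), and collagen, *Itga1*, -1.84 (SE 0.069, adjusted p = 8.29e-09), fell. The syndecan *Sdc3* was above background on 3 control and 0 GR24 arrays and was at least 1.25-fold lower. It passed the filter through the control group alone, so its call is a description too.

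With pinosylvin the higher and lower genes were 0 and 2 of 6 for other collagen chains, 0 and 2 of 6 for other basement membrane proteins, and 1 and 1 of 11 for elastic fibre genes. They were 1 and 1 of 19 for processing enzymes, 4 and 2 of 16 for proteases and inhibitors, and 3 and 3 of 16 for receptors. With resveratrol they were 1 and 1, 0 and 1, 0 and 4, 0 and 1, 3 and 5, and 2 and 5 for the same 6 lists in that order. Among all tested probes 8.28% were higher and 8.27% lower with pinosylvin, and 7.99% and 8.99% with resveratrol. Lists with shares near these, such as the processing enzymes, show no result of their own.

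Markers of cell types moved beside the matrix genes, and their part in the result was not tested. In a bulk sample fewer cells of a type and less RNA per cell cannot be told apart. Of 12 myotube markers 11 had a probe, and all 11 were well above background on all 12 arrays, so the labelled cell type had its markers. With GR24 8 of the 11 fell and 0 rose, among them *Myog*, a transcription factor of differentiation, -5.83 (SE 0.145, adjusted p = 5.53e-10), and *Acta1*, skeletal actin, -3.88 (SE 0.0777, adjusted p = 2.4e-10). Falls of muscle and cell cycle genes with GR24 were known from earlier results on these data. The mean level of the 11 markers was 4.03 in the control, 2.07 with GR24, 4.26 with pinosylvin and 3.71 with resveratrol, and 2 rose with pinosylvin and 5 fell with resveratrol. Among all tested probes 25.5% fell and 31.5% rose with GR24, 8.28% rose with pinosylvin and 8.99% fell with resveratrol. In the direct comparison 7 of the 11 were higher with pinosylvin than with resveratrol and 0 lower, where 7.68% and 6.85% of all tested probes were.

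Of 6 markers of undifferentiated myoblasts 5 were tested, and 3 fell with GR24, among them the proliferation marker *Mki67*, -2.83 (SE 0.104, adjusted p = 7.6e-09). Their mean level was 1.11 in the control, 0.27 with GR24, 0.62 with pinosylvin and 0.92 with resveratrol. Of these 5 markers 2 were lower with pinosylvin than with resveratrol and 0 higher. Fibroblast markers had 7 of 8 genes with a probe and 5 tested, with a mean level of 2.01 in the control, 1.72 with GR24, 2.14 with pinosylvin and 2.09 with resveratrol. With GR24 *Thy1* fell, -0.90 (SE 0.0772, adjusted p = 3.55e-06), as did *Pdgfrb*, -0.83 (SE 0.0668, adjusted p = 2.05e-06), and *Pdgfra* rose, 0.23 (SE 0.0706, adjusted p = 0.0182).

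Of 5 endothelial markers 2 were tested and 0 called with GR24, at -0.53 to -0.44, their mean level was -3.17 in the control and -3.65 with GR24, and *Tie1* was on no array above background. Of 5 macrophage markers 3 were tested, and *Cd68*, a lysosomal protein, 2.67 (SE 0.172, adjusted p = 4.11e-07), and *Lyz2*, 0.97 (SE 0.1, adjusted p = 1.37e-05), rose with GR24. Their mean level was -3.59 in the control and -2.38 with GR24, while *Ptprc*, the marker of all leukocytes, was above background on no array. Of 4 adipocyte markers 3 had a probe and 0 were tested, and *Adipoq* and *Cidec* were above background on no array.

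Some of the 48 genes are neighbours in the rat genome, and a pair shares a promoter. *Col4a1* and *Col4a2* lie head to head, with no gene between, and their promoter windows of 300 bases share 176 bases. *Col4a1* was called with none of the compounds against the control, but was called higher with pinosylvin with the replicate block (adjusted p = 0.0383). *Col4a2* had no probe. *Dcn* and *Lum* are also adjacent. Both fell with GR24, and *Lum* rose with pinosylvin while *Dcn* was not called, at 0.13 (adjusted p = 0.479).

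Promoters, windows of 300 bases that span the gene start, were taken from RefSeq on the rat assembly GRCr8, and 34 of the 48 genes matched. Motifs were searched on both strands, and matches were allowed to overlap. GGGCGG, the core of a GC box, was in 23 of the 34 promoters, 67.6%, against 33.1% of all 33469 promoters. CCAAT was in 11 (32.4% against 37.5%), and TATAAA was in 4, *Col1a2*, *Postn*, *Spp1* and *Tnc* (11.8% against 14.2%). GGAATG was in 6 (17.6% against 14.2%), TGACNNNGC in 2, *P4ha1* and *Timp1* (5.88% against 12.1%), and TGANTCA in 1, *Col6a1* (2.94% against 7.33%). A match is a description of the letters, not a site in use.

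The promoters of *Col4a1* (chr16:84885347-84885646, plus strand) and *Col4a2* (chr16:84885471-84885770, minus strand) are printed because they share bases. Each is written 5′ to 3′ on its own strand, and capitals mark matches of the 6 motifs on either strand.

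Col4a1: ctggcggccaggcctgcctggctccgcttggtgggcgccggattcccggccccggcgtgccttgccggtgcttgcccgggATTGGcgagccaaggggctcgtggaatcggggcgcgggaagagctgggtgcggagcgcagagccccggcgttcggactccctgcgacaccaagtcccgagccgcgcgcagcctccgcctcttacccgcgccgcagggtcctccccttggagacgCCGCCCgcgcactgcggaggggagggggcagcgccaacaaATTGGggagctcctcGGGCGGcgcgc

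Col4a2: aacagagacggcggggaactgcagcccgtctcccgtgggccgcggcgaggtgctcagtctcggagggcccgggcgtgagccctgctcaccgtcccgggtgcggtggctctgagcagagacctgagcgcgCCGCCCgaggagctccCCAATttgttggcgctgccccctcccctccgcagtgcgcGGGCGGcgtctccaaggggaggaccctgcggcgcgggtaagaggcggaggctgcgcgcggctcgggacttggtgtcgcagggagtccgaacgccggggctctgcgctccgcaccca

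The promoters of the 3 genes that fell with GR24 and rose with pinosylvin are printed to show which motif matches each holds, and they were added after the values of the genes were seen. *Postn* (chr2:140677811-140678110, plus strand) has a single TATAAA, *Thbs1* (chr3:125510000-125510299, plus strand) has GGGCGG as well as CCAAT and also GGAATG, and *Lum* (chr7:34245456-34245755, plus strand) has CCAAT alone. They come from the same RefSeq table and assembly, with capitals at the motif matches.

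Postn: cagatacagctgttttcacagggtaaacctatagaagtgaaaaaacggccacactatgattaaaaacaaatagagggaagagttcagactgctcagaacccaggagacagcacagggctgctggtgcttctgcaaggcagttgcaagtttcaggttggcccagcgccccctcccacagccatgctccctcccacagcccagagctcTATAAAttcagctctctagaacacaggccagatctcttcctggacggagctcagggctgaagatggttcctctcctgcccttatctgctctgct

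Thbs1: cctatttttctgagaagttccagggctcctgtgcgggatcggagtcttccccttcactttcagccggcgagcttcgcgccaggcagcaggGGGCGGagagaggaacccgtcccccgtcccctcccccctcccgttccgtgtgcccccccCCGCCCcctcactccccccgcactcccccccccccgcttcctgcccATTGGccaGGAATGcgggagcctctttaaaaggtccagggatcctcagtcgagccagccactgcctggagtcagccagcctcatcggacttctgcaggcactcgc

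Lum: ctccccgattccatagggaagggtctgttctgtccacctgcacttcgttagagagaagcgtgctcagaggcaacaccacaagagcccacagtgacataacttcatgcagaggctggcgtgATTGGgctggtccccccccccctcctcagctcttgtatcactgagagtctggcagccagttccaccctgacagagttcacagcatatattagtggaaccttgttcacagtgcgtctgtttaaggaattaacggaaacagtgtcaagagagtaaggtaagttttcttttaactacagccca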

How the data were processed

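RNA of 12 L6 samples was measured on Agilent 1-colour arrays. The deposited scanner files hold the processed signal, an intensity from which Feature Extraction 12.0.0.7 had removed background array by array and which was not normalized between arrays. A table of log2 values normalized by the authors comes with the series. Processed signals were log2 transformed, outlier spots were treated as missing, spots of a probe were averaged, and the 75th percentile over probes was subtracted. Testing was limited to probes detected above background on every array of some group, 24279 of 45598. limma 3.58.1 in R 4.3.3 fitted a mean per group to all 12 arrays, and 6 contrasts were tested with eBayes and Benjamini-Hochberg adjustment at 0.05. The test was checked on simulated data with independent noise, few changed probes and no slide or experiment effect. That check does not give the error rate in these data. Probes were named through RefSeq accessions, and a gene was represented by its brightest probe.

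Deviations from the group means correlated across tested probes at 0.191 to 0.744 (median 0.426) for the 18 pairs of arrays of the same replicate number. For other pairs they correlated at 0.222 to 0.475 (median 0.282) within slide 1, 12 pairs, and at -0.663 to -0.324 (median -0.486) between slides, 24 pairs. Within slide 1 the pairs of the same number lay at 0.191 to 0.469 (median 0.383) and overlapped the other pairs there. The other slide held arrays of a single replicate number, so slide and experiment cannot be told apart in the values between slides. In each group the deviations also cancel, so those values are not independent of the ones within slide 1. Replicate number and slide were each used as a block. Probes are not independent replicates.

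Values on each array are given for the 6 called genes with the largest change in each direction in each comparison with the control, and for genes called in opposite directions with different compounds. Of each list of other matrix genes the 3 called genes with the largest change with GR24 are named. Of the called markers of myotubes and of undifferentiated myoblasts only some are named. Other genes are named by role group. The lists were 8 role groups, 7 lists of other matrix genes and 6 of cell type markers. Members and lists were chosen with earlier results of these data known. A change is printed as a bound where the probe was above background on no array of a group. Alternatives were other normalizations, background corrections (normexp, offset 50), filters, scaling probes, probes per gene, variance models, blocks by replicate or slide, slide 1 alone, the 6 arrays compared, the deposited series table, outlier spots kept, and leaving out each array.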

Additional observations from a re-analysis of the deposited data

How the results depend on the processing

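Of 28 alternatives, 12 left out 1 array each. The 75th percentile over spots and the second brightest probe were chosen after seeing the data; the percentile over spots moved the median of all tested probes for GR24 against the control to 0.13 and that of the matrix genes to -0.55. Against the control, calls kept under all alternatives that tested the gene were 26 of 30 lower and 2 of 2 higher with GR24, 2 of 8 lower and 4 of 4 higher with pinosylvin, and 7 of 12 lower with resveratrol. Between compounds they were 27 of 32 lower and 3 of 3 higher for GR24 against pinosylvin, 22 of 27 and 2 of 2 for GR24 against resveratrol, and 6 of 11 higher and 0 of 1 lower for pinosylvin against resveratrol. *Eln*, counted as kept in the GR24 comparisons, was not tested with only probes above background on all 12 arrays. The number of matrix genes higher with GR24 than in the control was 4 with quantile normalization, with normexp and quantile normalization, and in the series table, and higher than with resveratrol 4 with normexp and quantile normalization (2 to 3 with 1 array left out). With pinosylvin 8 were higher with the replicate or slide block (4 to 6 with 1 array left out) and 2 lower with no filter or only the 6 arrays compared (3 to 7 with 1 array left out), and with resveratrol 19 were lower with the slide block (9 to 12 with 1 array left out). The replicate block also raised the share of all tested probes called higher with pinosylvin from 8.28% to 16.3%. Higher with pinosylvin than with resveratrol were 18 with the replicate block, 17 with the slide block, 6 with no filter and 7 on slide 1 alone (6 to 12 with 1 array left out). Lower with pinosylvin than with resveratrol were 5 with either block, 4 with normexp and quantile normalization, 3 with quantile normalization, with normexp and the percentile, in the series table, with the percentile over probes above background on all 12 arrays and with trend and robust settings, 2 with only such probes tested and with the percentile over spots, and 0 with no filter or on slide 1 alone (0 to 2 with 1 array left out). *Timp2* turned from -0.06 to 0.13, 0.16 and 0.15 for GR24 against the control and from -0.22 to 0.019, 0.032 and 0.033 for GR24 against pinosylvin, each with quantile normalization, normexp and quantile normalization, and the series table. The cause was not tested. Leaving out 1 array leaves 2 in its group. Dim genes such as *Eln* and *Postn* rest on signals closest to background, and the number of arrays limits the precision.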
